A study of Caenorhabditis elegans with 12 samples.

Results

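Cytochrome P450 (cyp), glutathione S-transferase (gst) and UDP-glucuronosyltransferase (ugt) genes of Caenorhabditis elegans were followed through 4 groups of whole-worm RNA libraries, after knockdown of rpia-1 and in control worms. The members are all genes whose names begin with cyp-, gst- or ugt-, which gave 191 of the 46904 genes measured. They comprise 81 cyp, 44 gst and 66 ugt genes. By Ensembl annotation 185 of them are protein coding and 6 are pseudogenes, among them cyp-31A1.

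N2 worms, the wild type, received bacteria (E. coli HT115) that produce rpia-1 dsRNA from day 0 of adulthood (N2 rpia-1 RNAi, 3 samples) or bacteria with the empty vector (N2 EV, 3 samples). Both N2 groups are labelled day 5. TU3401 worms carry the array uIs69, in which pCFJ90 (myo-2p::mCherry) is a visible marker and unc-119p::sid-1 expresses the dsRNA channel SID-1 from a pan-neuronal promoter, which makes neurons sensitive to feeding RNAi. No other allele of TU3401 is listed in the labels. They were given rpia-1 dsRNA for the whole life, from the embryo on (TU3401 rpia-1 RNAi, 3 samples), or the empty vector (TU3401 EV, 3 samples), and are labelled day 0, and their deposited columns carry the mark L4, although the study's methods describe collection at the day-5 adult stage for all. Each sample pooled at least 500 worms, and the samples of a group are described as independently collected. rpia-1 encodes an isomerase of sugar phosphates in the pentose phosphate pathway, whose oxidative branch makes NADPH.

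The 3 families act on small lipophilic molecules, both foreign compounds and the animal's own lipids and hormones. P450 enzymes oxidise a substrate with electrons from NADPH, passed on by the reductase EMB-8. Glutathione S-transferases attach glutathione, and UDP-glucuronosyltransferases attach a sugar from a UDP-sugar, which makes the product soluble and ready for export. In worms many of these genes are active in the intestine, lie in tandem arrays of close relatives and respond to regulators such as SKN-1 and nuclear hormone receptors, and gst-4 is widely used as a reporter of SKN-1 activity.

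The levels are the TPM values as deposited. Libraries of the same strain, RNAi and EV together, correlated at 0.970 to 0.996 on the log2 scale, over genes that averaged 1 TPM or more. The targeted gene rpia-1 had 27.5, 32.8 and 30.2 TPM in N2 rpia-1 RNAi worms, against 128, 115.4 and 120 TPM in N2 EV worms. In TU3401 it had 82.0, 88.5 and 106 TPM after RNAi, against 107, 107 and 115.3 TPM with the vector. The groups did not overlap in either strain, and the two-sided exact permutation p was 0.10 in both, the smallest that 3 against 3 samples allow. Markers of intestine and muscle were low in all N2 libraries although these are labelled whole worm. The 10 intestine markers summed to 139 to 189 TPM in N2 rpia-1 RNAi and 200 to 211 TPM in N2 EV libraries, against 5417 to 6401 TPM in TU3401 rpia-1 RNAi and 5900 to 6203 TPM in TU3401 EV libraries. The library of N2 rpia-1 RNAi replicate 1 stood apart, with 22388 genes above 0, against 17777 to 19135 in the other N2 libraries. The family sums, medians and calls of the N2 knockdown are therefore given with and without it. The non-overlap counts of that knockdown, and the comparison of N2 and TU3401 rpia-1 RNAi libraries, are given only with it.

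A few genes carried most of the RNA of the P450 and GST families in N2. In N2, cyp-31A2, cyp-31A5 and cyp-31A3 were the 3 highest P450 genes. cyp-31A2 and cyp-31A3 are known to act redundantly in making the lipid-rich eggshell layer. cyp-31A2 had 176, 204 and 198 TPM in N2 rpia-1 RNAi and 203, 196 and 196 TPM in N2 EV worms. The 3 genes bear the name of 1 subfamily and their sequences were not compared here, so how reads were divided among them is uncertain. The ratio of cyp-31A3 to cyp-31A2 stayed between 0.556 and 0.642 over the 12 libraries. gst-1, a pi-class enzyme, and gst-7 held 50.8% and 35.7% of the summed gst level in N2 rpia-1 RNAi worms, and 51.6% and 34.7% in N2 EV worms. ugt-64 led its family with 25.6% in N2 rpia-1 RNAi and 26.8% in N2 EV worms. In TU3401 the order was another. There cyp-13A6 was the highest P450 gene (17.1% of the family sum after RNAi, 17.9% with EV), gst-1 held 23.5% of its family after RNAi and 21.8% with EV, and ugt-62, ugt-47 and ugt-22 led the ugt genes.

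Many members were hardly detected. A mean of at least 1 TPM was reached by 34 cyp, 20 gst and 32 ugt genes in N2 rpia-1 RNAi worms and by 34 cyp, 20 gst and 31 ugt genes in N2 EV worms. In TU3401 it was reached by 42 cyp, 27 gst and 47 ugt genes after RNAi and by 38 cyp, 28 gst and 48 ugt genes with EV. Over both groups of a strain, 86 members averaged 1 TPM or more in N2 and 113 in TU3401. Of all genes 10626 did so in N2 and 13921 in TU3401. cyp-13A9 and cyp-35B3 were listed at 0 in all 12 libraries.

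**Figure D1:**
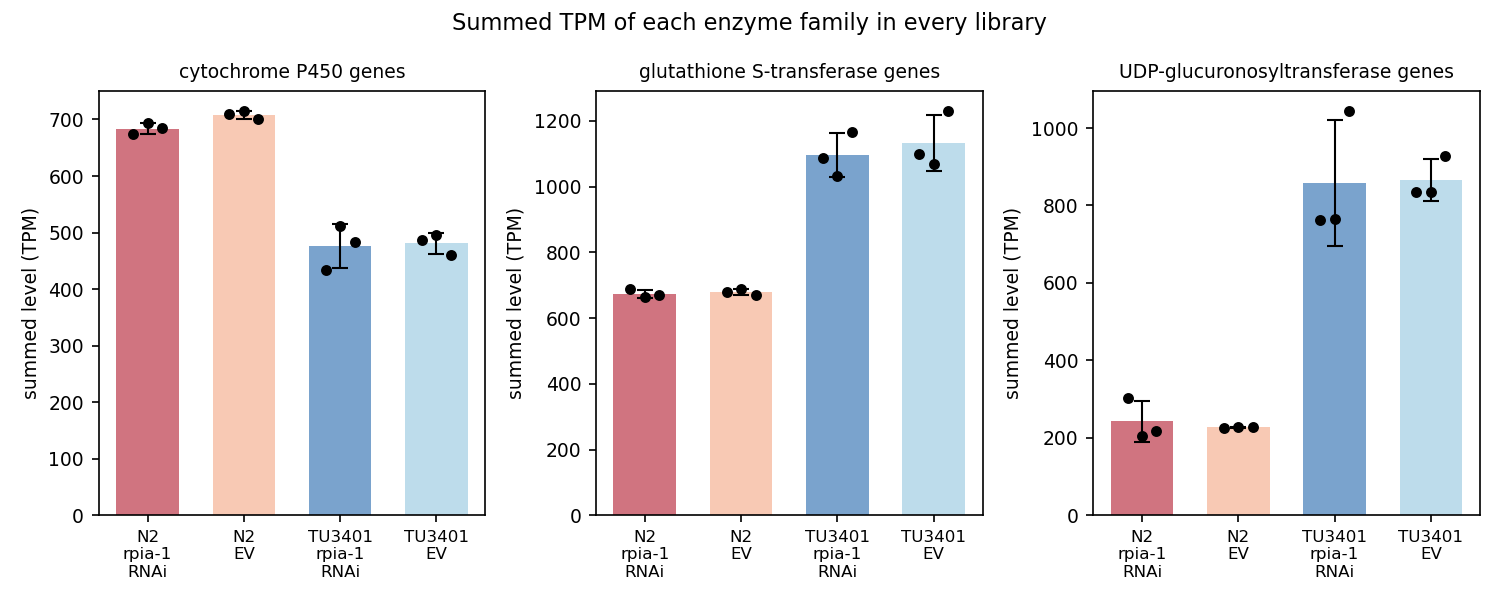
Summed level in TPM of the 81 cyp, 44 gst and 66 ugt genes in each of the 12 libraries (points), with the mean (bar) and SD (error bar) of the 3 libraries of a group. The RNAi and EV bars of a strain stand at like heights in each family, while N2 was above TU3401 for cyp and below it for gst and ugt.

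The first question was what ubiquitous knockdown of rpia-1 in adult N2 worms did to the detoxification enzymes. No member of the 3 families passed the test. The cyp genes summed to 684 ± 9.76 TPM in N2 rpia-1 RNAi and 708 ± 7.40 TPM in N2 EV worms (SD, n = 3 each, as for the sums that follow). The gst genes summed to 673 ± 13.2 TPM after RNAi and 680 ± 9.66 TPM with EV, and the ugt genes to 243 ± 53.4 TPM after RNAi and 227 ± 0.670 TPM with EV. The 3 cyp sums after RNAi (674, 693 and 685 TPM) all lay below the 3 with EV (709, 715 and 700 TPM), whereas the gst and ugt sums overlapped. That overlap came with replicate 1 alone. RNAi replicates 2 and 3 had gst sums of 663 and 669 TPM and ugt sums of 205 and 219 TPM, below the 670 to 690 TPM (gst) and 227 to 228 TPM (ugt) of the EV libraries. Without replicate 1 the mean ugt sum after RNAi was 212 TPM, so the side of the EV mean on which it lay was set by that library.

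Genes that averaged 1 TPM or more in the 6 libraries were fitted with limma on log2(TPM + 1), and p-values were adjusted over all such genes by the Benjamini-Hochberg method. Of the 191 members 86 were tested (35 cyp, 20 gst and 31 ugt), and 0 passed an adjusted p of 0.05 in limma, where 1 of 10626 genes did (0.00941%), namely rpia-1 itself. At an unadjusted p under 0.05 there was 1 member, against 1.66% of all genes. The members' changes ran between -0.52 and 0.52, and the family medians were -0.05 for cyp (11 positive, 24 negative), -0.05 for gst (6 and 14) and 0.03 for ugt genes (18 and 13), beside -0.0017 for all genes tested. In groups of 3 that do not overlap, 1 member was higher, where 1.96% of all genes were, and 7 were lower, where 3.15% were.

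Those 7 were 4 cyp, 1 gst and 2 ugt genes. cyp-34A9 had the smallest p among the cyp genes. It had 16.5, 13.2 and 13 TPM in N2 rpia-1 RNAi worms, against 18.3, 16.8 and 18.7 TPM in N2 EV worms, a difference of -0.32 ± 0.13 (log2, SE, limma adjusted p = 1). cyp-35A2, a P450 of the intestine linked to fat storage and induced by xenobiotics, had 15.5, 15.2 and 15 TPM after RNAi, against 20.2, 21.6 and 15.9 TPM with EV. In both genes the highest RNAi library lay just under the lowest EV library.

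gst-4 had 3.51, 4.19 and 3.05 TPM in N2 rpia-1 RNAi worms and 4.67, 4.70 and 5.36 TPM in N2 EV worms, a difference of -0.37 with a 95% interval of -0.79 to 0.05 (limma adjusted p = 1). gst-10, an enzyme that conjugates toxic aldehydes from lipid peroxidation, had 4.11, 6.21 and 5.55 TPM after RNAi, against 5.69, 7.18 and 8.84 TPM in EV worms, and its groups overlapped. gst-16 was the member whose 3 RNAi libraries were all higher, at 2.72, 2.11 and 2.84 TPM, against 1.5, 1.5 and 1.85 TPM in EV worms (log2 difference 0.44 ± 0.19, SE, limma adjusted p = 1). Among the ugt genes, ugt-17 (-0.34) and ugt-47 (-0.29) did not overlap, and ugt-47 had only 1.12, 1.15 and 1.18 TPM after RNAi, against 1.71, 1.77 and 1.41 TPM with EV.

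Changes of moderate size could not be resolved for many members. The 95% interval reached to either side of the log2 difference by a median of 0.52 for cyp, 0.51 for gst and 0.56 for ugt genes, and by less than 1 for 33 of 35 cyp, 18 of 20 gst and 30 of 31 ugt genes. The highest members were measured more closely. gst-1 had 328, 344 and 353 TPM after RNAi, against 363, 337 and 352 TPM with EV, and its difference had an interval of -0.15 to 0.07. For cyp-31A2 the interval was -0.19 to 0.10, and for gst-7 -0.11 to 0.17.

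**Figure D2:**
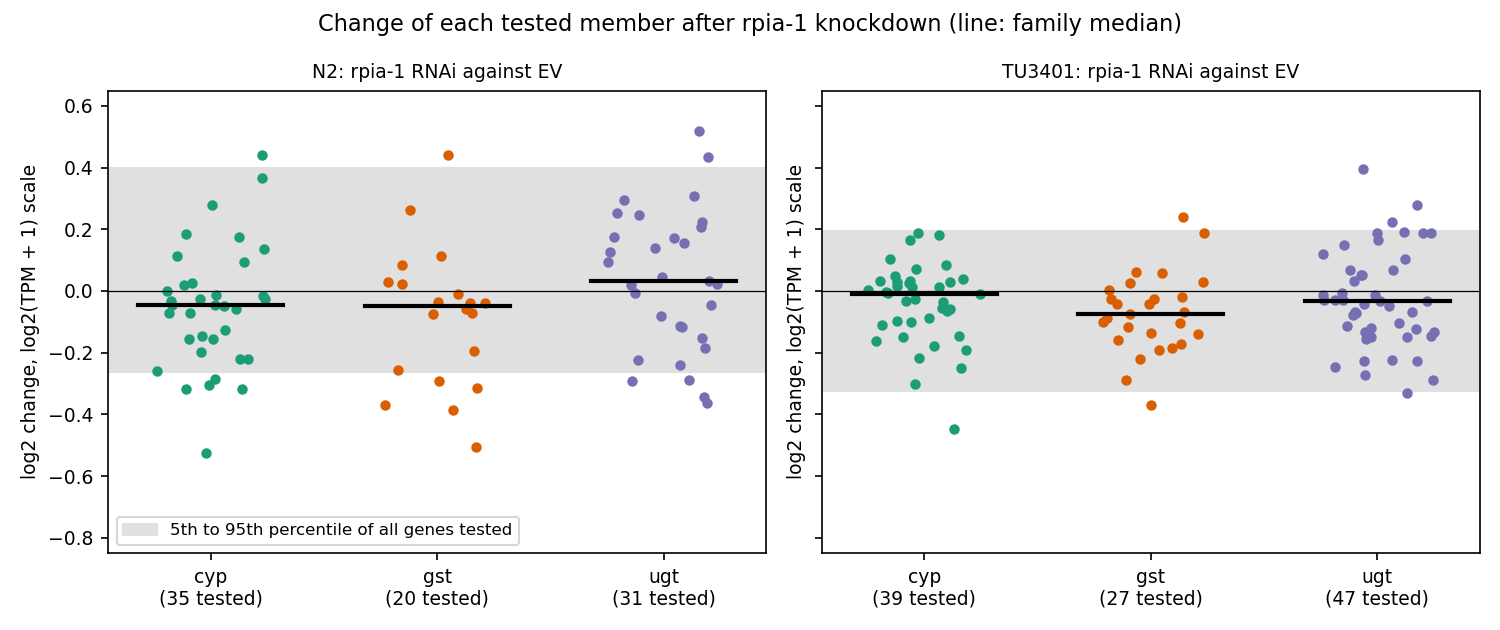
Change in log2(TPM + 1) of every tested member after rpia-1 RNAi against EV, in N2 (left) and in TU3401 (right); black lines are family medians and the grey band spans the 5th to 95th percentile of all genes tested. The points gather around 0 in all 3 families, and no member passed the test in either strain.

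The spread of the ugt genes in N2 came largely with 1 library. N2 rpia-1 RNAi replicate 1 held the top value among 6 libraries for 21 of 31 ugt genes (67.7%), for 15 of 35 cyp (42.9%) and 6 of 20 gst genes (30%), and for 39.0% of all genes tested. The median ugt gene lay 0.35 above the EV mean in that library, against -0.20 and -0.07 in RNAi replicates 2 and 3. ugt-63 had 21.6 TPM there and 8.04 and 13.5 TPM in RNAi replicates 2 and 3, against 7.93, 8.83 and 10.5 TPM in EV worms. ugt-25 was also highest there, with 22.2, 7.63 and 12.2 TPM after RNAi, against 9.38, 9.04 and 12.7 TPM with EV.

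gst-24 was more uneven still, at 14.7, 1.94 and 2.48 TPM after RNAi, against 3.64, 4.25 and 6.11 TPM with EV, so that 2 RNAi libraries lay below every EV library and the third above all of them. Single-library highs of this kind, at least 2-fold over the next library, were seen for 1 cyp, 1 gst and 3 ugt genes in that replicate, and for 850 of 10626 genes (8%). Without it, the medians became -0.20 for cyp (23 of 34 negative), -0.19 for gst (18 of 20) and -0.11 for ugt genes (24 of 29), beside -0.0069 for all genes. In that fit 0 members passed limma's adjusted p while 33 of 10293 genes did, and 6 cyp, 2 gst and 5 ugt genes had an unadjusted p under 0.05, where 705 genes did (6.85%). With all 6 libraries every one of the 10 intestine markers had a negative difference (median -0.28, 0 passing by limma). In that fit 51 of 86 members were negative and 35 positive. Of the 7 hypodermis and cuticle markers tested 6 had a positive difference (median 0.21, 0 passing by limma). In RNAi replicate 1 these markers summed to 370 TPM, against 193 and 204 TPM in RNAi replicates 2 and 3. The EV libraries had 192 to 256 TPM. RNAi replicate 1 was the highest of the N2 set for 7 of 10 of these markers, 9 of 10 neuron and 6 of 8 muscle markers. It was so for 2 of 10 intestine, 0 of 11 germline and oocyte and 0 of 12 sperm markers. The part of these tissues in the members' values was not tested. In such bulk samples, fewer cells of a type and less RNA per cell cannot be told apart.

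**Figure D3:**
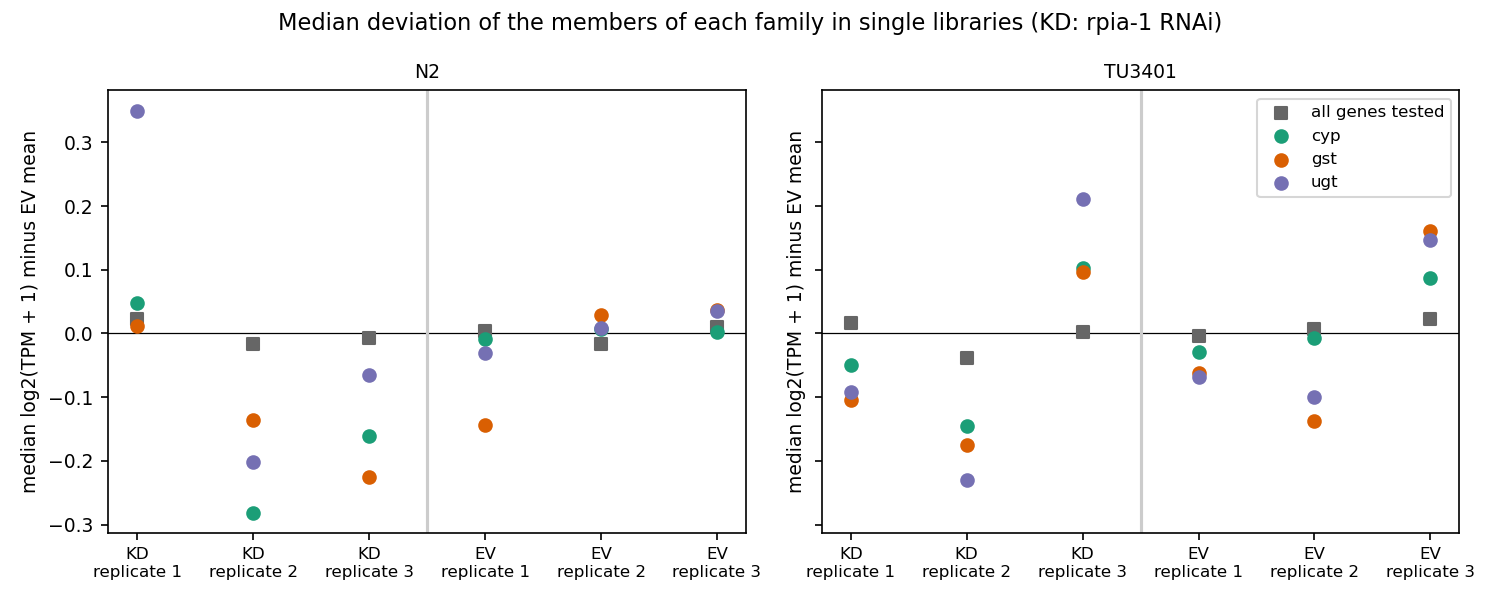
Median over the tested members of each family, and over all genes tested, of log2(TPM + 1) minus its EV mean, in each N2 (left) and TU3401 (right) library. The ugt median of N2 rpia-1 RNAi replicate 1 stands at 0.35, above the other N2 libraries, and the families are high in the replicate 3 libraries of both TU3401 groups.

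The second question was what knockdown in neurons for the whole life did in TU3401. More members were tested in this strain (113, against 86 in N2), as were more of all genes (13921, against 10626). Again no member passed the test. The cyp genes summed to 476 ± 39.5 TPM in TU3401 rpia-1 RNAi and 481 ± 19.1 TPM in TU3401 EV worms (SD, n = 3 each, as for the sums that follow). The gst genes summed to 1095 ± 67.1 TPM after RNAi and 1133 ± 86.4 TPM with EV, and the ugt genes to 857 ± 162 TPM after RNAi and 866 ± 54 TPM with EV. The sums of RNAi and EV libraries overlapped in each family.

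Of 113 members tested (39 cyp, 27 gst and 47 ugt), 0 passed limma's adjusted p of 0.05, as did 0 of 13921 genes (0%). The targeted gene rpia-1 was thus not called either. At an unadjusted p under 0.05 there were 0 members, against 1.18% of all genes. Changes ran between -0.45 and 0.39, with medians of -0.0092 for cyp (17 positive, 22 negative), -0.07 for gst (7 and 20) and -0.03 for ugt genes (16 and 31), beside 0.0041 for all genes. Without overlap between the groups, 6 members were higher, where 1.36% of genes were, and 1 was lower, where 2.03% were.

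The differences at both ends were small beside the spread of the replicates. cyp-33C5 had 1.98, 0.650 and 2.47 TPM in TU3401 rpia-1 RNAi worms, against 2.45, 2.33 and 2.78 TPM in TU3401 EV worms, so that its low value came from replicate 2. ugt-45 had 2.88, 5.01 and 5.49 TPM after RNAi, against 2.98, 3.01 and 3.17 TPM with EV, a log2 difference of 0.39 ± 0.23 (SE, limma adjusted p = 1). cyp-33E2, a P450 known to make eicosanoids from fatty acids, was among the 6 higher members, at 4.94, 4.89 and 6.18 TPM after RNAi, against 4.80, 4.35 and 4.72 TPM with EV.

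Well-known stress reporters lay close to their controls. gst-4 had 28.1, 31.2 and 36.1 TPM in TU3401 rpia-1 RNAi worms, against 30.0, 29.6 and 39.0 TPM in TU3401 EV worms, a difference of -0.04 with an interval of -0.39 to 0.30. gst-10 had 71.2, 58.9 and 69.9 TPM after RNAi, against 69.8, 66.9 and 94.0 TPM with EV. ugt-62, the ugt gene with the highest level in TU3401, had 64.6, 107 and 173 TPM after RNAi, against 106, 117 and 105 TPM with EV. Its RNAi libraries thus lay on both sides of the EV libraries.

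Replicate 3 of both TU3401 groups was high for many members. One of these 2 libraries was the highest of the 6 for 25 of 39 cyp (64.1%), 22 of 27 gst (81.5%) and 40 of 47 ugt genes (85.1%), beside 43.1% of all genes. Without TU3401 rpia-1 RNAi replicate 3, 30 of 38 cyp, 21 of 26 gst and 38 of 48 ugt genes had negative differences, with medians of -0.11, -0.185 and -0.18. Without TU3401 EV replicate 3 the medians were 0.0041, 0.0065 and 0.04. With both left out, a choice made after these values were seen, they were -0.06, -0.08 and -0.07. All genes had medians of 3.4e-05, -0.0052 and 0.0020 in these fits, with 50%, 52.2% and 49.3% of them negative. In each of the fits 0 members passed limma's adjusted p, and at an unadjusted p under 0.05 there were 8, 0 and 4, beside 3.85%, 0.919% and 2.88% of all genes. Markers of several tissues were high in the same libraries. A replicate 3 library was the highest for 8 of 8 muscle, 8 of 10 intestine, 9 of 10 neuron and 11 of 12 sperm markers. It was so for 4 of 10 hypodermis and cuticle and 0 of 11 germline and oocyte markers. In the TU3401 knockdown 8 of 8 muscle (median -0.14), 9 of 10 intestine (-0.08) and 11 of 12 sperm markers (-0.09) had negative differences. So had 6 of 9 neuron (-0.04) and 5 of 9 hypodermis and cuticle markers (-0.02). Of the germline and oocyte markers 9 of 11 had positive differences (0.07). In each list 0 passed by limma, and the part of these tissues in the members' values was not tested.

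Whether the response differed between N2 and TU3401 was tested on the difference of the changes in all 12 libraries. Of 108 members tested 0 passed limma's adjusted p, where 1 of 13383 genes did (0.00747%), again rpia-1. gst-16 was the only member with an unadjusted p under 0.05 (difference of changes 0.55, 95% interval 0.03 to 1.06), a share near the 1.17% of all genes. Strain, labelled age, onset and tissue of the knockdown differ together between these arms and cannot be told apart.

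No tested partner gene of these enzymes passed in a knockdown. The lists held 13 regulators, 5 P450 partners, 21 genes of glutathione metabolism, 2 of UDP-glucuronate supply, 23 efflux transporters and 4 enzymes of NADPH supply. Of these, 12, 4, 16, 2, 13 and 4 were tested in N2, in this order. In TU3401 12, 4, 19, 2, 18 and 4 were tested, and 12, 4, 18, 2, 19 and 4 for the difference. Past limma's adjusted p were 0 of them in N2, in TU3401 and in the difference. Over all genes 1 of 10626, 0 of 13921 and 1 of 13383 were. gstk-1, a kappa-class transferase outside the name rule, had the smallest p of the glutathione list in both strains, at -0.21 ± 0.08 in N2 (log2, SE) and -0.23 ± 0.14 in TU3401 (log2, SE), with a limma adjusted p of 1 in each. Among the regulators nhr-86, a nuclear hormone receptor, had -0.09 in N2, and skn-1, the transcription factor that drives gst-4, had 0.12 in TU3401, each with a limma adjusted p of 1.

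Far larger differences lay between the 2 sets of worms than between knockdown and control. In EV libraries, N2 at day 5 had lower gst and ugt levels and higher cyp levels than TU3401 at day 0. The gst sum was 680 ± 9.66 TPM in N2 EV and 1133 ± 86.4 TPM in TU3401 EV worms, and the ugt sum 227 ± 0.670 TPM in N2 EV and 866 ± 54 TPM in TU3401 EV worms. The cyp sum was 708 ± 7.40 TPM in N2 EV and 481 ± 19.1 TPM in TU3401 EV worms. Without cyp-31A2, cyp-31A3 and cyp-31A5 it was 227 ± 8.30 TPM in N2 EV and 316 ± 5.04 TPM in TU3401 EV worms, so these 3 genes decided its direction. Without gst-1 and gst-7 the gst sum was 93.0 ± 9.89 TPM in N2 EV and 778 ± 101 TPM in TU3401 EV worms. Strain and labelled age cannot be told apart in this comparison.

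Among the members tested, 4 gst genes were higher and 18 lower in N2 EV worms (of 24, median log2 difference -1.79), 6 ugt genes were higher and 33 lower (of 44, median -1.92), and 15 cyp genes were higher and 16 lower (of 38, median -0.06). Over all 13348 genes 43.4% were higher and 45.4% lower by the same limma threshold, with a median of -0.06, so that for the cyp genes the shares were near those of all genes. Of these 106 members 23 passed the filter on low levels only through TU3401 and 5 only through N2. The filter favours genes that differ: 27 of these 28 were called, as were 3352 of the 3449 genes that passed through 1 group. With at least 1 TPM in both groups, 4 gst genes were higher and 13 lower (of 19), 6 ugt higher and 20 lower (of 30), and 10 cyp higher and 12 lower (of 29), where 55.5% of all such genes were higher and 30.4% lower.

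The same contrast in libraries that share no sample with it, N2 rpia-1 RNAi against TU3401 rpia-1 RNAi, gave 4 gst genes higher and 19 lower (of 24, median -1.90), 4 ugt higher and 30 lower (of 46, median -1.91), and 9 cyp higher and 13 lower (of 40, median -0.30), where 40.9% of all genes were higher and 39% lower. In these, 26 members passed the filter only through TU3401 and 4 only through N2. Of these 30 members 26 were called, beside 3091 of the 3351 genes that passed through 1 group. With at least 1 TPM in both groups, 4 gst genes were higher and 14 lower (of 19), 3 ugt higher and 18 lower (of 31), and 6 cyp higher and 8 lower (of 30), where 50.9% of all such genes were higher and 24.9% lower. Among genes at 1 TPM or more in all 4 groups, the rpia-1 RNAi libraries gave the same call for 13 of 13 gst, 17 of 18 ugt and 7 of 11 cyp genes that were lower in EV libraries, where 79.3% of all such genes were called again. Of those that were higher it did so for 4 of 4 gst, 3 of 6 ugt and 6 of 10 cyp genes, where 92.3% of all such genes were. No member was called in opposite directions.

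**Figure D4:**
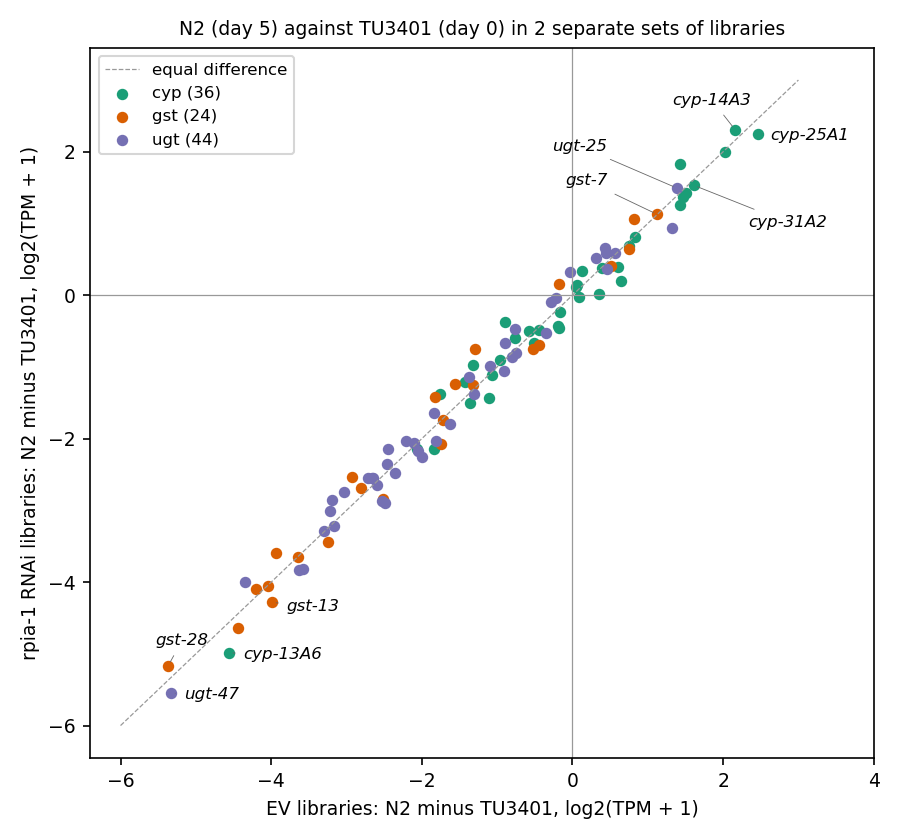
Difference between N2 (day 5) and TU3401 (day 0) of each member in log2(TPM + 1), in the EV libraries (horizontal) and in the rpia-1 RNAi libraries (vertical), for 36 cyp, 24 gst and 44 ugt genes tested in both. The points lie along the line of equal difference, with most gst and ugt genes below 0 on both axes.

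On the log2(TPM + 1) scale cyp-13A6 differed the most of the cyp genes. It had 2.32, 4 and 1.98 TPM in N2 EV worms, against 83.9, 94.6 and 79.4 TPM in TU3401 EV worms (log2 difference -4.56 ± 0.18, SE, limma adjusted p = 3.3e-08). It is 1 of 9 members of a cyp-13A array on chromosome II, and its neighbour cyp-13A7 stayed at 0.0459 to 0.521 TPM in all 12 libraries. The eggshell genes went the other way. cyp-31A2 had 203, 196 and 196 TPM in N2 EV worms, against 67.9, 71.4 and 54.7 TPM in TU3401 EV worms (1.61 ± 0.10, adjusted p = 3.9e-07 by limma), while the pseudogene cyp-31A1 had 4.14, 3.42 and 3.56 TPM in N2 EV and 14.5, 14.2 and 15.9 TPM in TU3401 EV worms. cyp-25A1 had 15.4, 14.3 and 18.8 TPM in N2 EV and 1.96, 1.6 and 2.84 TPM in TU3401 EV worms. cyp-14A3 had 3.3, 3.9 and 4.14 TPM in N2 EV worms, against 0.0477, 0.0968 and 0.0620 TPM in TU3401 EV worms. The ratio of means was 55.0-fold for cyp-14A3 and 31.1-fold for cyp-13A6. That of cyp-14A3 rests on a TU3401 mean near 0 and was 161-fold in the rpia-1 RNAi libraries, so the 2 genes are not ranked by it. The values of cyp-13A6, cyp-31A2, cyp-31A1, cyp-25A1 and cyp-14A3 did not overlap between N2 EV and TU3401 EV worms. Most genes were alike in this: of 13348 tested, 5886 were higher and 6073 lower in N2 EV without overlap. cyp-44A1, a relative of the mitochondrial P450 enzymes of vertebrates, had 49.3, 51.7 and 49.1 TPM in N2 EV and 30.8, 29.7 and 27.2 TPM in TU3401 EV worms (log2 difference 0.76). cyp-35C1 was among the P450 genes with no difference called, at 14.4, 13.6 and 12.7 TPM in N2 EV and 13.2, 12.9 and 12.9 TPM in TU3401 EV worms (log2 difference 0.06, 95% interval -0.17 to 0.29).

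The gst genes split into a small high group and a large low one. gst-7 had 236, 255 and 219 TPM in N2 EV worms, against 104.4, 109 and 110 TPM in TU3401 EV worms (log2 difference 1.12 ± 0.07, SE, limma adjusted p = 5.5e-07). Its immediate neighbour gst-6, in the same array on chromosome II, ran the opposite way, at 3.44, 5.27 and 4.15 TPM in N2 EV worms, against 66.0, 56.2 and 72.2 TPM in TU3401 EV worms (-3.64 ± 0.15, adjusted p = 3.6e-08 by limma). gst-1, gst-43 and gst-44 were the other 3 genes that were higher in N2, by 0.51, 0.75 and 0.82.

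The 18 gst genes that were lower in N2 included gst-4 and gst-10. gst-4 had 4.67, 4.70 and 5.36 TPM in N2 EV worms, against 30.0, 29.6 and 39.0 TPM in TU3401 EV worms (-2.51). gst-10 had 5.69, 7.18 and 8.84 TPM in N2 EV worms, against 69.8, 66.9 and 94.0 TPM in TU3401 EV worms (-3.24). gst-13 had 4.63, 5.33 and 5.44 TPM in N2 EV worms, against 102, 98.8 and 87.9 TPM in TU3401 EV worms (-3.99). In all 3 genes the N2 EV libraries lay below every TU3401 EV library, as they did for 6073 of 13348 genes tested. gst-28 had 0, 0.258 and 0.747 TPM in N2 EV worms, against 50.4, 45.9 and 63.1 TPM in TU3401 EV worms, and the size of its fitted difference (-5.37) depends on the pseudocount.

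Of the ugt genes, ugt-47 differed the most by this measure. It had 1.71, 1.77 and 1.41 TPM in N2 EV worms, against 97.3, 101 and 117 TPM in TU3401 EV worms (log2 difference -5.33 ± 0.11, SE, limma adjusted p = 1.1e-09). ugt-62 had 8.54, 7.35 and 7.79 TPM in N2 EV worms, against 106, 117 and 105 TPM in TU3401 EV worms. In ugt-22 the values were 12.9, 13.7 and 10.7 TPM in N2 EV and 80.3, 74.5 and 85.4 TPM in TU3401 EV worms. In each of these genes N2 EV lay below TU3401 EV without overlap, as in 6073 of 13348 genes tested. ugt-64, ugt-25 and ugt-45 were the higher genes called in both contrasts, by 0.47, 1.39 and 1.31 in the EV libraries, and ugt-63 was not called (-0.03, 95% interval -0.45 to 0.39).

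**Figure D5:**
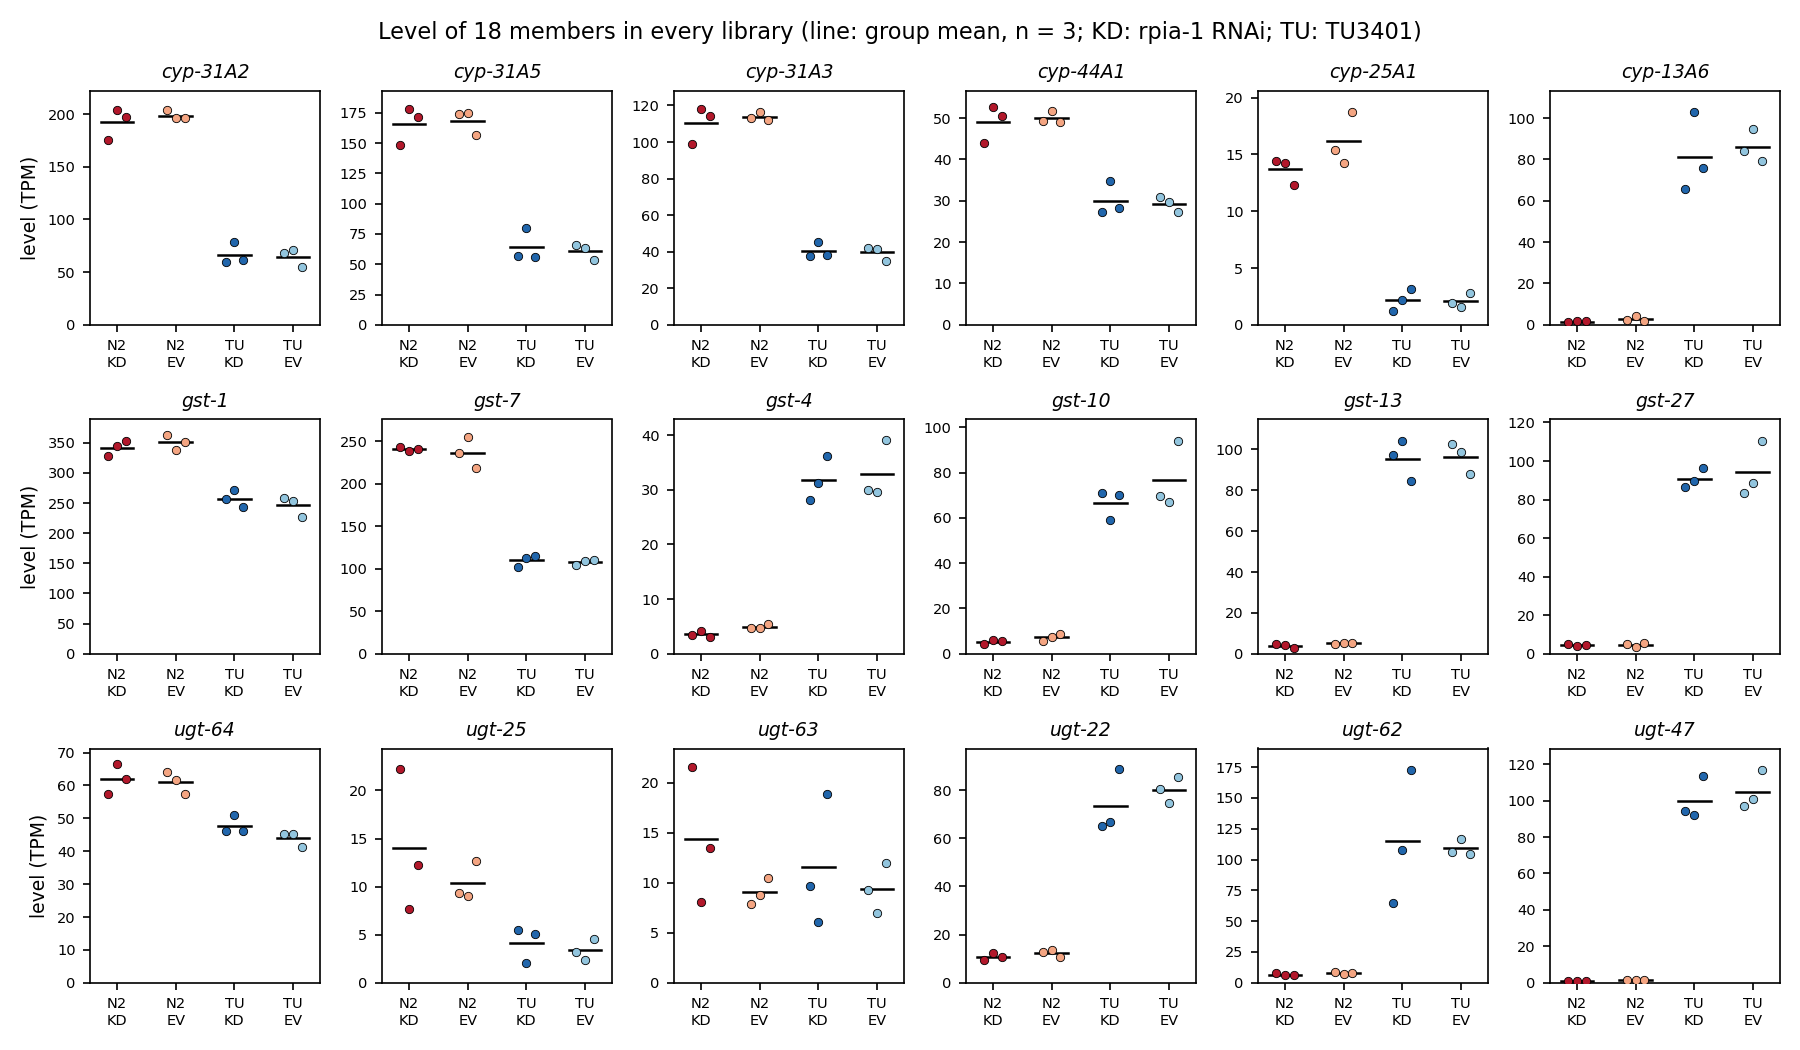
Level in TPM of 18 members in each library (points) with group means (lines, n = 3), in N2 and TU3401 worms with rpia-1 RNAi (KD) or EV; each panel has its own axis from 0. cyp-13A6, gst-13 and ugt-47 are near 0 in N2 and between 65.5 and 117 TPM in TU3401, while cyp-31A2 and gst-7 are higher in N2.

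Genes of an array did not all differ alike. Members of a family within 10000 bases of each other formed 28 runs, 13 of cyp, 4 of gst and 11 of ugt genes, with 48, 25 and 36 members. In the EV libraries 15 runs had at least 2 tested members, and the genes called in them were all lower in N2 in 9, all higher in 1 and of both directions in 5. Every tested gene was called in 4 of the 9, and in the run of cyp-25A1, cyp-25A2 and cyp-25A3 the last was not called. These counts include members that passed the filter through 1 group alone, of which 27 of 28 were called over all members. Among them were gst-28, ugt-1 and ugt-2, through TU3401, and cyp-35B1, through N2. Of all genes tested 43.4% were higher and 45.4% lower, so the counts of runs are a description. In 1 gst run gst-26, gst-27, gst-28 and gst-39 were lower, while gst-29 between the last 2 was not called (-0.44, limma adjusted p = 0.054). The neighbours ugt-1 and ugt-2 were both lower, as were ugt-47 and ugt-17. By contrast ugt-25 was higher and ugt-26 in the same run lower. In the run of 11 cyp genes on chromosome V 3 were tested, of which cyp-34A9 and cyp-35B1 were higher and cyp-34A8 lower. In the rpia-1 RNAi libraries cyp-34A9 was higher again and cyp-34A4 lower. There cyp-34A8 was not called (-0.60, limma adjusted p = 0.11) and cyp-35B1 was not tested.

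Markers of several tissues differed between N2 and TU3401 in the same libraries. In EV worms 10 of 10 intestine markers (median log2 difference -3.79), 8 of 8 muscle markers (-4.30) and 11 of 11 tested sperm markers (-7.43) were lower in N2, and 10 of 11 germline and oocyte markers were higher (1.12). Of the hypodermis and cuticle markers 3 were higher and 6 lower (of 10), and of 9 tested neuron markers 2 were higher and 6 lower. The summed muscle markers ranged over 92 to 109 TPM in N2 EV and 3594 to 4243 TPM in TU3401 EV libraries, and the sperm markers over 1.72 to 5.33 TPM in N2 EV and 2207 to 3125 TPM in TU3401 EV libraries. Germline and oocyte markers ranged over 6321 to 6760 TPM in N2 EV and 2853 to 3596 TPM in TU3401 EV libraries. Those of hypodermis and cuticle ranged over 192 to 256 TPM in N2 EV and 1019 to 1385 TPM in TU3401 EV libraries, and those of neurons over 409 to 441 TPM in N2 EV and 257 to 268 TPM in TU3401 EV libraries. The direction of the neuron sum came from snb-1, without which it was 29.8 to 35.7 TPM in N2 EV and 44.4 to 54.5 TPM in TU3401 EV libraries. No marker was at 0 in all 3 libraries of a group. The part of these tissues in the members' values was not tested.

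Partner genes were called in both directions, which most genes were (43.4% higher and 45.4% lower in N2 EV), so the counts of these short lists are given as a description. Of the regulators 7 were higher and 3 lower in N2 EV (of 12 tested). nhr-8, a nuclear receptor of xenobiotic and sterol response, had 2.16, 2.5 and 2.96 TPM in N2 EV worms, against 23, 24.3 and 24.7 TPM in TU3401 EV worms (limma adjusted p = 6.1e-08), and xrep-4, a regulator of SKN-1, had 181, 174 and 178 TPM in N2 EV and 70.2, 76.1 and 67.9 TPM in TU3401 EV worms. Of the efflux transporters 4 were higher and 14 lower (of 19), with pgp-9 at -2.86 and mrp-1 at -2.47. Both genes of UDP-glucuronate supply were higher, namely sqv-4, the UDP-glucose dehydrogenase (1.45), and sqv-7, a transporter of UDP-sugars (1.27). Of the genes of glutathione metabolism 8 were higher and 8 lower (of 18), with the omega-class transferase gsto-1 at -3.98, of the P450 partners 2 were higher and 1 lower (of 4), and of the NADPH enzymes 1 was higher and 2 lower (of 4).

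The direction of small differences between N2 and TU3401 depended on scaling. Scaled to equal medians, all genes had a median difference of 0.64 in the EV libraries, and 61.4% of all calls were higher in N2, against 48.9% as deposited. The members then split into 22 cyp higher and 10 lower (median 0.63), 5 gst higher and 17 lower (-1.09), and 9 ugt higher and 28 lower (-1.23). In the rpia-1 RNAi libraries the same scaling gave a median of 0.63 for all genes, 62.7% of calls higher (51.2% as deposited), and 18 cyp higher and 7 lower, 4 gst higher and 16 lower, and 10 ugt higher and 27 lower.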

How the data were processed

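Whole-worm RNA of 12 libraries was compared. The authors sequenced stranded mRNA libraries and processed the reads with tools that the submitters' notes name as HISAT2 2.2.1, featureCounts 1.6.2, Trimmomatic 0.36, MultiQC 1.12 and FastQC 0.11.9. The genome build is not given in the sources used here. The deposited FPKM and TPM tables were used, the TPM values as a linear signal, since their sums lie slightly above what TPM has by definition and they differ from the FPKM values by 1 factor per library. Their steps did not give whole reads, so the depth in reads is unknown and no count test was run.

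limma 3.58.1 in R 4.3.3, with a mean-variance trend, was run on log2(TPM + 1) for genes that averaged 1 TPM or more in the libraries of a fit. The scale understates changes of low genes. Differences and medians of differences are log2 values, and an adjusted p under 0.05 passed. Python 3.11.15, pandas 2.3.3, numpy 2.4.6 and matplotlib 3.10.9 were also used. The method was tested on simulated data. Ensembl release 115 (WBcel235) matched all 191 members by ID and gave chromosomes, gene types and neighbours, and Ensembl calls cyp-34A4 dach-1.

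The members and lists were chosen with earlier results of these data known. Named are, in each family, the 5 members with the highest mean, the 4 with the smallest p in each knockdown and the 2 for the difference, the 5 with the largest rise and fall between N2 and TU3401, members with known roles, and up to 2 genes of each partner list. gst-6, gst-29, gst-39, cyp-13A9, cyp-34A4, cyp-34A8, cyp-35B3, ugt-2 and ugt-26 were added once their values had been seen. The alternatives tried were pseudocounts of 0.1 and 5 TPM, FPKM values, a minimum of 5 TPM or no filter, median scaling, no trend, a replicate block, 1 fit of all 12 libraries, and leaving out each library. The p-values measure the spread between samples described as independent. Sequences of the members were not used here.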

Additional observations from a re-analysis of the deposited data

How the results depend on the processing

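In both knockdowns and in their difference 0 members passed limma's adjusted p under each alternative run. Over all genes the calls were 2 in N2, 6 in TU3401 and 10 for the difference without a filter, which tests many more genes, and 0 for the difference with FPKM and with median scaling, for which the cause was not tested. Leaving out single libraries gave 1 to 33 calls in N2 (33 without N2 rpia-1 RNAi replicate 1, 2 without N2 EV replicate 3), 0 to 1 in TU3401 (1 without replicate 3 of either group) and 1 to 2 for the difference (2 without TU3401 rpia-1 RNAi replicate 3). The labels number the replicates alike, but samples with the same number deviated together only in part (correlations of -0.44, 0.04 and -0.41 in N2, and 0.05, 0.44 and 0.42 in TU3401), so they were not treated as pairs. With a replicate block the calls were 1 in N2, 0 in TU3401, 1 for the difference, 11844 in the EV libraries and 10796 in the rpia-1 RNAi libraries.

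Between N2 and TU3401, a minimum of 5 TPM left fewer members and called 15 of 17 cyp and 23 of 25 ugt genes in the EV libraries (90.5% of all genes), and 12 of 17 cyp and 21 of 26 ugt genes in the rpia-1 RNAi libraries (83.9%). Median scaling shifted all differences of a comparison upward and turned those of several members from negative to positive. In the EV libraries these included cyp-33E2 (0.24), cyp-35A2 (0.51), cyp-36A1 (0.50), cyp-37B1 (0.11), gst-24 (0.51) and ugt-63 (0.66). In the rpia-1 RNAi libraries they included cyp-35A2 (0.16). Neither list is complete. The median of all genes was then 0.64 and 0.63 in these comparisons.

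With FPKM, whose factor to TPM was 1.21 for TU3401 EV replicate 3, 1.39 for replicate 2 of N2 EV and 1.70 to 1.93 elsewhere, the log2 ratio of the summed levels was -0.20 (cyp) and -0.16 (gst) in the N2 knockdown and -0.20 (cyp) and -0.25 (gst) in the TU3401 knockdown. All genes shifted down as well in the FPKM fits of the knockdowns. Their medians were -0.13 in N2 (7685 of 9386 negative) and -0.15 in TU3401 (11845 of 12805 negative). The log2 ratio of the sums was 0.40 (cyp), -0.92 (gst) and -2.11 (ugt) between the EV groups, and 0.40 (cyp) and -0.83 (gst) between the rpia-1 RNAi groups. Members that did not overlap were then 2 of 20 gst genes lower in the N2 knockdown (4.91% of all genes), and in the TU3401 knockdown 0 higher cyp, gst and ugt genes (0.129%), 1 of 39 cyp and 2 of 47 ugt genes lower (3.84%). Between the EV groups 2 of 24 gst and 2 of 44 ugt genes were higher without overlap (34.5%). The depth in reads is unknown, so counting error could not be given for members of low level.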
